A study of Mus musculus with 6 samples.

Results

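The genes described here encode the kinases, adaptors, lipid enzymes and transcription factors that carry a signal from the high-affinity IgE receptor into the mast cell. They were chosen by name from a list of 45 gene symbols, and all 45 were found among the 17890 genes of the count table. RNA was sequenced from mast cells of mouse lymph nodes, with 3 libraries from uninvolved nodes (uLN) and 3 from nodes that held tumour metastases (mLN). The labels name no treatment or transgene for either group. Mouse strain, age, the kind of tumour and how the mast cells were isolated were not given in the sources used here. Each of the 6 libraries held 17643916 to 17799420 estimated counts. These totals are nearly equal, and whether counts were scaled or reads subsampled before deposit was not given in the sources used here, so read numbers below are those of the deposited table.

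Antigen that binds IgE on a mast cell clusters the receptor. Lyn then phosphorylates the receptor chains, Syk docks on them and phosphorylates the adaptor LAT, and a complex built around LAT and SLP-76 activates phospholipase C gamma. The enzyme's products open calcium stores, which drives calcineurin and NFAT, and activate protein kinase C and the RasGRP exchange factors that load Ras. Fyn and the adaptor Gab2 feed a parallel branch through phosphoinositide 3-kinase, and the lipid phosphatase SHIP1 and the Dok adaptors restrain both.

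The mast cell label was checked against 12 marker genes, whose summed level was 44000 to 46000 CPM (counts scaled to library size with edgeR's TMM factors) in uLN and 43000 to 45700 in mLN. The nearly equal sums hold changes in both directions, with 4 markers called higher and 6 lower. The protease genes Mcpt4, Tpsb2 and Cma1 rose 4.03-fold, 2.06-fold and 2.01-fold, while Kit, the stem cell factor receptor, fell 2.47-fold and Cpa3, the most abundant of them, 1.35-fold. Several members are best known from lymphocytes or phagocytes, so markers of those cells were summed as well. Of 16 T cell markers 14 were in the table and 7 of these had under 10 reads in every library. Their summed level was 25.1 to 25.2 CPM in uLN and 29.0 to 33.3 in mLN, and Cd3g had 1 read over all 6 libraries. Of 10 B cell markers 8 were in the table, 5 of them under 10 reads in every library, with sums of 7.64 to 8.41 CPM in uLN and 5.80 to 7.23 in mLN. The 12 macrophage markers summed to 143 to 194 CPM in uLN and 230 to 265 in mLN, with 3 of 11 tested called higher and 7 lower. Cd68, Adgre1 and Itgam were the higher ones, and Cd68 went from 354, 527 and 430 reads in uLN to 1672, 1564 and 1605 in mLN, while Lyz2, the most abundant in uLN, fell 1.34-fold. The 3 basophil markers summed to 319 to 332 CPM in uLN and 494 to 523 in mLN, and Cd200r3 was the most abundant of them. The 8 keratinocyte markers ran from 7.76 to 17.2 CPM in uLN and from 15.8 to 157 in mLN, highest in mLN replicate 1. Platelet and megakaryocyte markers, led by Itga2b, summed to 1960 to 2030 CPM in uLN and 1060 to 1250 in mLN. Of the 4 tested, Itga2b and Gp1ba were called lower (1.79-fold and 1.38-fold). Pf4 and Gp9 were called higher (9.18-fold and 2.43-fold), with at most 51 and 31 reads in a library. Summed levels were 16.0 to 16.6 and 15.0 to 22.4 CPM for NK cell markers, 9.29 to 10.5 and 15.4 to 17.7 for dendritic cell markers, 6.08 to 7.45 and 5.81 to 7.51 for neutrophil markers, and 594 to 615 and 631 to 694 for fibroblast and endothelial markers, in uLN and mLN respectively. The last sum is mostly Pecam1, which was not called. Of the fibroblast markers, Dcn had 27, 23 and 9 reads in uLN and 591, 20 and 61 in mLN, and Col1a2 had 41, 58 and 19 and then 536, 49 and 109. Both were called higher, and mLN replicate 1 stood far above the other libraries. The part of these other cells in the results below was not tested. In such bulk samples fewer cells of a type and less RNA per cell cannot be told apart.

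Of the 45 members 42 passed the expression filter. Among these 17 were higher and 14 lower in mLN in edgeR's two-sided quasi-likelihood test with Benjamini-Hochberg adjustment over all tested genes, called at an adjusted p under 0.05, and 11 were not called. The share called was 73.8%, against a background of 67.4% of all 12706 tested genes, 33.2% higher and 34.2% lower. The share of members called is thus close to that of genes in general. The changes were modest in size. Of the 31 called members 19 (61.3%) differed by less than 1.5-fold, compared with 51.8% of all called genes, and the largest fold was 2.09. With a second call rule, edgeR's glmTreat test of a change beyond 1.5-fold, 3 members were higher (Rasgrp1, Nfatc2 and Vav2) and 3 lower (Lat, Rasgrp4 and Btk). These are 14.3% of the tested members, against 21.0% of all tested genes (11.8% higher and 9.20% lower). The median log2 fold change of the members was -0.05, and that of all tested genes -0.01. The groups did not overlap for 33 of the 42, 18 with mLN higher and 15 with mLN lower, where the background was 72.9% of genes, 35.6% higher and 37.3% lower. Of these 33, Ppp3ca and Prkcq were not called. The labels do not say that replicates came from separate animals, so the p-values rest on the spread among libraries of a group, and this spread may be technical.

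Sequence just upstream of the start of transcription is shown for the members called beyond 1.5-fold for which RefSeq's GRCm38.p6 promoter table has an entry, so that the genes that rose and fell can be compared. Rasgrp4 is not in that table. Each is printed 5′ to 3′ on the gene's strand, which is the minus strand for all 5, up to 250 bases before a RefSeq start and without bases that GENCODE M21 places in an exon of that gene. Capitals mark matches on either strand to the following motifs. They are the core of GATA sites, spelled AGATAA, the core of hypoxia response elements, spelled ACGTG, an E-box bound by MITF, spelled CATGTG, the core of ETS sites, spelled GGAAGT, the AP-1 site, spelled TGACTCA, and the core of NFAT sites, spelled GGAAAA. The fallers are Lat at chr7:126369571-126369818 and Btk at chrX:134583141-134583390, and the risers are Rasgrp1 at chr2:117343002-117343127, Nfatc2 at chr2:168601658-168601907 and Vav2 at chr2:27427609-27427858.
Lat: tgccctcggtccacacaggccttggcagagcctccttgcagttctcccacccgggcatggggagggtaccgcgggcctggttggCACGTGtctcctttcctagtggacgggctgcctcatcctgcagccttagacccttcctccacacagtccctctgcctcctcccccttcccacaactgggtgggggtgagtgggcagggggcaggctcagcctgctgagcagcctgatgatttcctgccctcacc
Btk: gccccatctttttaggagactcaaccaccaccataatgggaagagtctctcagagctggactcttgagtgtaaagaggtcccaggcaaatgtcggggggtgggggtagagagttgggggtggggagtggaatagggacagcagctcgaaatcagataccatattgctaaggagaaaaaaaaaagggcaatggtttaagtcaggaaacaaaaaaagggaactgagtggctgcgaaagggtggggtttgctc
Rasgrp1: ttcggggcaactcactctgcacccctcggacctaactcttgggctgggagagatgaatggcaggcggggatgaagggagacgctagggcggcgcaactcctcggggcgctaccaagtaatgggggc
Nfatc2: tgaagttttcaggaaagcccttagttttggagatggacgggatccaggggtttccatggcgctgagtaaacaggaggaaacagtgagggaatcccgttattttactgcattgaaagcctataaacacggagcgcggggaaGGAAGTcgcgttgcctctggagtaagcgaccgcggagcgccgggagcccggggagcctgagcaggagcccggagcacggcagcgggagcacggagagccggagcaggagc
Vav2: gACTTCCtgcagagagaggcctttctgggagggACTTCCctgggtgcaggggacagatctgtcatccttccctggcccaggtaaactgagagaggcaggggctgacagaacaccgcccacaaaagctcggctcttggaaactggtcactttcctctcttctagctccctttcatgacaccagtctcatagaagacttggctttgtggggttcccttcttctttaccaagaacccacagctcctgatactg
The starts used for Lat and Btk lie inside the gene's full RefSeq span (chr7:126363827-126369705 and chrX:134542334-134583628). The Lat window holds CACGTG, which matches ACGTG on both strands, and the Btk window holds none of the motifs. In the Rasgrp1 window the part shown holds none and the part not shown 1 match to ACGTG. The Vav2 window holds 2 reverse matches to GGAAGT and the Nfatc2 window 1 forward match. Windows of 250 bases were found for 34 of the 45 members, some with several starts. GGAAGT was in a window of 13 of the 34 members, where 19.7% of all 32851 windows hold it. These were 6 of 11 that rose, 3 of 10 that fell and 4 of 13 not called or not tested. ACGTG was found for 8 members, 3 that rose and 2 that fell (16.6% of all windows). GGAAAA was found for 7, 3 that rose and 2 that fell (20.4%), and CATGTG for 6, 1 that rose and 2 that fell (12.3%). AGATAA was found for 2, 0 that rose and 1 that fell (3281 of the 32851 windows). TGACTCA was found for 2, 1 that rose and 0 that fell (4.5%). A member with several starts has more than 1 window, so its chance of a match is larger than that of a single window. A match is a string of letters in these windows, not a measured binding site.

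**Figure D1:**
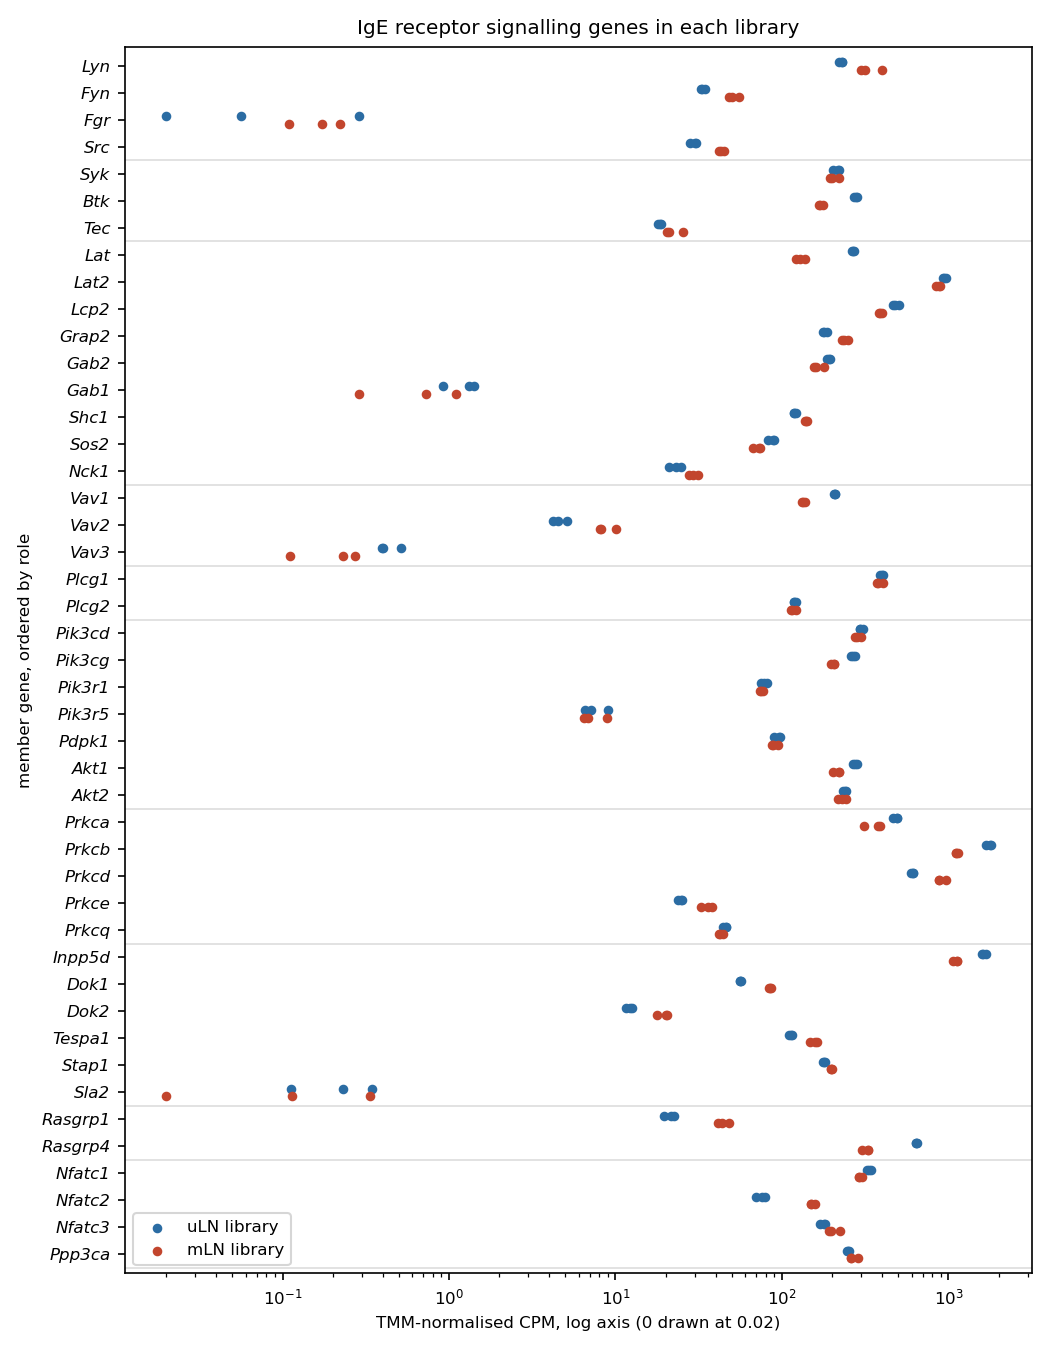
Each member gene is 1 row, ordered by role, and each point is 1 library, with TMM-normalised CPM on a log axis (uLN blue, mLN red). Levels span from Prkcb at 1670 to 1795 CPM in uLN down to Fgr, Vav3 and Sla2 with a few reads per library.

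The Src-family kinases, which act first at the receptor, were higher in mLN together. Lyn, the kinase that phosphorylates the receptor's signalling motifs, was at 229.0, 219.9 and 230.6 CPM in uLN replicates 1, 2 and 3 and at 298.2, 316.7 and 399.8 in mLN replicates 1, 2 and 3. All mLN libraries lay above all uLN libraries, and mLN replicate 3 lay well above the other two. Lyn rose 1.49-fold, a log2 change of 0.58 ± 0.09 (SE, n = 3 libraries a group, edgeR adjusted p = 0.000253), and 1.36-fold without mLN replicate 3. Fyn, which starts the Gab2 branch, was at 32.96, 32.79 and 34.35 CPM in uLN and 47.93, 49.82 and 55.46 in mLN. It rose 1.53-fold (edgeR adjusted p = 1.71e-05). Src itself, a broadly expressed member of the family, rose 1.46-fold (edgeR adjusted p = 2.14e-05). Fgr, a kinase of phagocytes, had 0, 1 and 5 reads in uLN and 2, 4 and 3 in mLN. It was at or near the floor of 3 reads per library and was not tested. The mixture of these kinases was little altered. On a scale that divides by transcript length as well as library total (TPM), Lyn made up 74.9% ± 0.24 (SD, n = 3) of the summed level of these member kinases in uLN and 74.5% ± 2.1 in mLN. The sum went from 197.3 ± 3.6 to 299.9 ± 34 TPM (SD, n = 3).

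The next kinases in the chain went apart from each other. Syk, which binds the phosphorylated receptor, was at 221.0, 201.5 and 215.6 CPM in uLN and 194.2, 200.2 and 219.0 in mLN. The groups overlapped and Syk was not called (log2 change of -0.06, 95% interval from -0.18 to 0.07). Btk, a Tec-family kinase that supports phospholipase C gamma, was at 281.0, 269.0 and 278.6 CPM in uLN and 166.7, 177.1 and 168.2 in mLN. Every mLN library lay far below every uLN library. Btk fell 1.62-fold (log2 change of -0.69 ± 0.04, SE, edgeR adjusted p = 3.78e-07), and its glmTreat call (adjusted p = 0.0212) was lost without uLN replicate 1 (0.0701) and without mLN replicate 1 (0.0743). The related kinase Tec was called higher by 1.21-fold (edgeR adjusted p = 0.0218), a call lost without each of the uLN replicates (adjusted p from 0.0509 to 0.0701). Tec was much the scarcer of the pair. It made up 5.67% ± 0.029 of the summed TPM of Btk and Tec in uLN and 10.6% ± 1.3 in mLN (SD, n = 3).

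The membrane adaptor LAT showed the largest fall. Lat, on which the complex around phospholipase C gamma is built, was at 270.2, 263.9 and 267.9 CPM in uLN and 127.6, 136.8 and 121.3 in mLN. The uLN libraries were tightly grouped and all of them lay above every mLN library. The log2 change was -1.06 ± 0.05 (SE), a 2.08-fold fall (edgeR adjusted p = 6.01e-08). Lat2, which encodes the related adaptor NTAL, was the most abundant adaptor at 941.3, 933.1 and 969.7 CPM in uLN and 882.9, 889.0 and 847.2 in mLN. It was called lower by only 1.09-fold (edgeR adjusted p = 0.0232), and the call was lost without uLN replicate 1 (0.0535) and without uLN replicate 3 (0.0725). Per transcript length Lat made up 27.4% ± 0.38 of the summed TPM of these 2 adaptors in uLN and 16.4% ± 0.54 in mLN (SD, n = 3).

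The cytosolic adaptors moved less and in both directions. Lcp2, which encodes SLP-76, was at 480.2, 466.6 and 505.7 CPM in uLN and 386.0, 398.0 and 384.8 in mLN, and fell 1.24-fold (edgeR adjusted p = 0.000109). Grap2, which encodes GADS, the link between LAT and SLP-76, went the other way. It was at 177.7, 185.7 and 177.5 CPM in uLN and 248.0, 235.7 and 229.1 in mLN, a 1.32-fold rise (edgeR adjusted p = 2.80e-05). Neither gene's groups overlapped. Gab2, the scaffold that recruits phosphoinositide 3-kinase, was at 194.0, 186.8 and 191.3 CPM in uLN and 155.3, 159.0 and 179.1 in mLN, and fell 1.16-fold (edgeR adjusted p = 0.00699). Its relative Gab1 had 16, 25 and 23 reads in uLN and 20, 13 and 5 in mLN and was not called (95% interval of the log2 change from -1.71 to 0.15). Of the adaptors that lead to Ras and to the cytoskeleton, Shc1 and Nck1 rose 1.16-fold and 1.29-fold, while the Ras exchange factor Sos2 fell 1.22-fold.

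**Figure D2:**
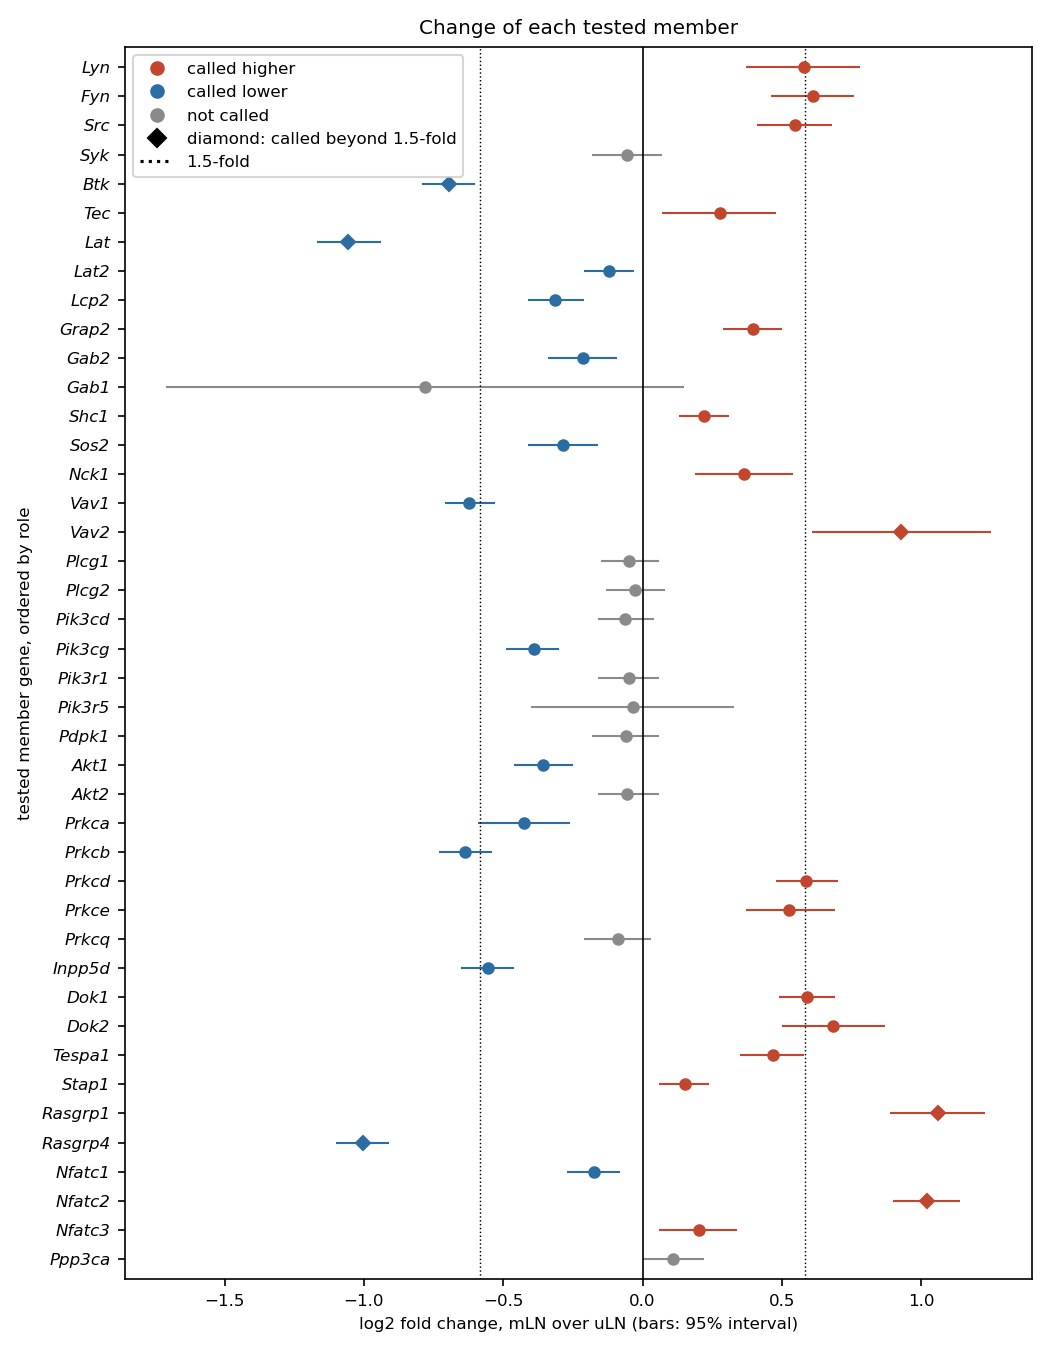
Points give the log2 fold change of mLN over uLN for the 42 tested members, ordered by role, with 95% intervals as bars and dotted lines at 1.5-fold. The 6 diamonds, called beyond 1.5-fold, are Btk, Lat and Rasgrp4 on the left and Vav2, Rasgrp1 and Nfatc2 on the right, while the phospholipases and most PI3-kinase genes sit near 0.

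The Vav exchange factors, which activate Rac and organise the cytoskeleton, were led by Vav1. Vav1, the form of blood cells, fell 1.54-fold from 206.9 ± 1.73 to 134.3 ± 2.57 CPM (SD, n = 3, edgeR adjusted p = 4.91e-07). Vav2, a more widely expressed form, was at 4.19, 5.08 and 4.54 CPM in uLN and 10.02, 8.17 and 8.10 in mLN. Its groups were well apart, and it rose 1.90-fold (log2 change of 0.93 ± 0.14, SE, edgeR adjusted p = 0.000195). The glmTreat call of Vav2 (adjusted p = 0.0238) was lost without uLN replicate 1 (0.0896), uLN replicate 3 (0.0727) or mLN replicate 1 (0.0935). The mLN replicate 1 library held the highest Vav2 level and the most keratinocyte and fibroblast marker reads, and Vav2 was 1.77-fold higher without it. Vav2 still made up only 3.39% ± 0.41 of the family's summed TPM in mLN, from 1.18% ± 0.11 in uLN (SD, n = 3). Vav3 had 7, 7 and 9 reads in uLN and 5, 2 and 4 in mLN and was not tested.

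Neither gene for phospholipase C gamma, the enzyme on which these branches converge, was called. Plcg1 was at 400.8, 389.0 and 403.8 CPM in uLN and 378.0, 369.6 and 406.5 in mLN. Plcg2 was at 117.5, 121.1 and 118.7 CPM in uLN and 113.3, 115.0 and 122.0 in mLN. Both genes' groups overlapped, with 95% intervals of the log2 change from -0.15 to 0.06 for Plcg1 and from -0.13 to 0.08 for Plcg2. Plcg1 was the major form, at 75.1% ± 0.64 of their summed TPM in uLN and 74.8% ± 0.40 in mLN (SD, n = 3).

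Genes of phosphoinositide 3-kinase and AKT were likewise mostly uncalled, with 2 of 7 lower and none higher (28.6% called, against 67.4% of all tested genes). Pik3cg, the gamma catalytic subunit that mast cells use downstream of G protein-coupled receptors, fell 1.31-fold from 266.3 ± 6.25 to 203.1 ± 5.11 CPM (SD, n = 3, edgeR adjusted p = 1.73e-05). Akt1 fell 1.28-fold from 274.7 ± 7.45 to 214.6 ± 10.3 CPM (SD, n = 3, edgeR adjusted p = 8.16e-05). The delta catalytic subunit gene Pik3cd, the regulatory subunit genes Pik3r1 and Pik3r5, the AKT-activating kinase gene Pdpk1 and Akt2 had log2 changes between -0.06 and -0.04 and were not called. For Pik3r5, which had 114 to 162 reads per library, the 95% interval was wide, from -0.40 to 0.33. Without mLN replicate 3 the small falls of Syk, Plcg1, Pik3cd and Akt2 were called (edgeR adjusted p from 0.0193 to 0.0304) at log2 changes from -0.10 to -0.09, and 18 members were lower in place of 14.

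The protein kinases C showed a change of mixture. Prkcb, a calcium-dependent form and the most abundant member per transcript length in uLN, was at 1774, 1670 and 1795 CPM there and at 1104, 1147 and 1113 in mLN. Prkcd, a form that does not need calcium, was at 612.6, 591.8 and 609.5 CPM in uLN and 881.2, 874.1 and 971.6 in mLN. Neither gene's groups overlapped. Prkcb fell 1.56-fold (edgeR adjusted p = 5.16e-07) and Prkcd rose 1.5-fold (edgeR adjusted p = 2.54e-06). On the TPM scale Prkcb went from 62.6% ± 0.46 of the sum of the 5 member genes in uLN to 45.2% ± 1.1 in mLN, and Prkcd from 26.8% ± 0.38 to 45.2% ± 2.0 (SD, n = 3). Other forms outside the list, such as Prkci at a mean of 11.1 TPM, are not in this sum. Prkca, the other calcium-dependent form here, fell 1.34-fold (edgeR adjusted p = 0.000525), and was lowest in mLN replicate 3, without which its log2 change was -0.33 in place of -0.43. The calcium-independent form Prkce rose 1.44-fold at a low level, from 24.56 ± 0.60 to 35.36 ± 2.68 CPM (SD, n = 3). Prkcq, the form known from T cell activation, was at 45.57 ± 1.01 and 42.86 ± 1.07 CPM (SD, n = 3) and was not called.

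The 2 RasGRP exchange factors, which load Ras when diacylglycerol is made, moved in opposite directions. Rasgrp4, a form typical of mast cells, was at 645.7, 641.7 and 637.2 CPM in uLN and 329.1, 326.5 and 303.4 in mLN. Rasgrp1, the form best known in T cells, was at 22.47, 21.45 and 19.65 CPM in uLN and 43.38, 41.37 and 47.88 in mLN. The libraries of each group lay close together and the groups far apart for both. Rasgrp4 fell 2.01-fold (log2 change of -1.005 ± 0.04, SE, edgeR adjusted p = 3.48e-08) and Rasgrp1 rose 2.09-fold (1.06 ± 0.08, SE, edgeR adjusted p = 1.01e-06). The share of Rasgrp1 in their summed TPM went from 4.26% ± 0.25 to 15.7% ± 1.6 (SD, n = 3), while the sum fell from 486.6 ± 8.1 to 280.1 ± 12 TPM (SD, n = 3). Rasgrp4 thus remained the major form in all 6 libraries.

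Among the calcium-dependent endpoints, Nfatc2 stood out by its size of change. This NFAT factor of immune cells was at 78.77, 70.27 and 76.12 CPM in uLN and 149.2, 158.0 and 149.4 in mLN. Every mLN library was above every uLN library by a wide margin. Nfatc2 rose 2.03-fold (log2 change of 1.02 ± 0.05, SE, edgeR adjusted p = 1.11e-07). Nfatc1 fell 1.13-fold (edgeR adjusted p = 0.00348), and Nfatc3 was called higher by 1.15-fold (edgeR adjusted p = 0.0149), a call lost without uLN replicate 2 (0.0645). The share of Nfatc2 in the summed TPM of the 3 factors went from 18.6% ± 0.42 to 31.8% ± 1.5, and that of Nfatc1 from 49.1% ± 0.55 to 36.8% ± 1.1 (SD, n = 3). Ppp3ca, the catalytic subunit gene of calcineurin, was not called (log2 change of 0.11, edgeR adjusted p = 0.0630), though it was called with DESeq2's size factors in edgeR (0.0425), with no scaling factors (0.0122), in DESeq2 (0.0472) and without mLN replicate 1 (0.0491).

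**Figure D3:**
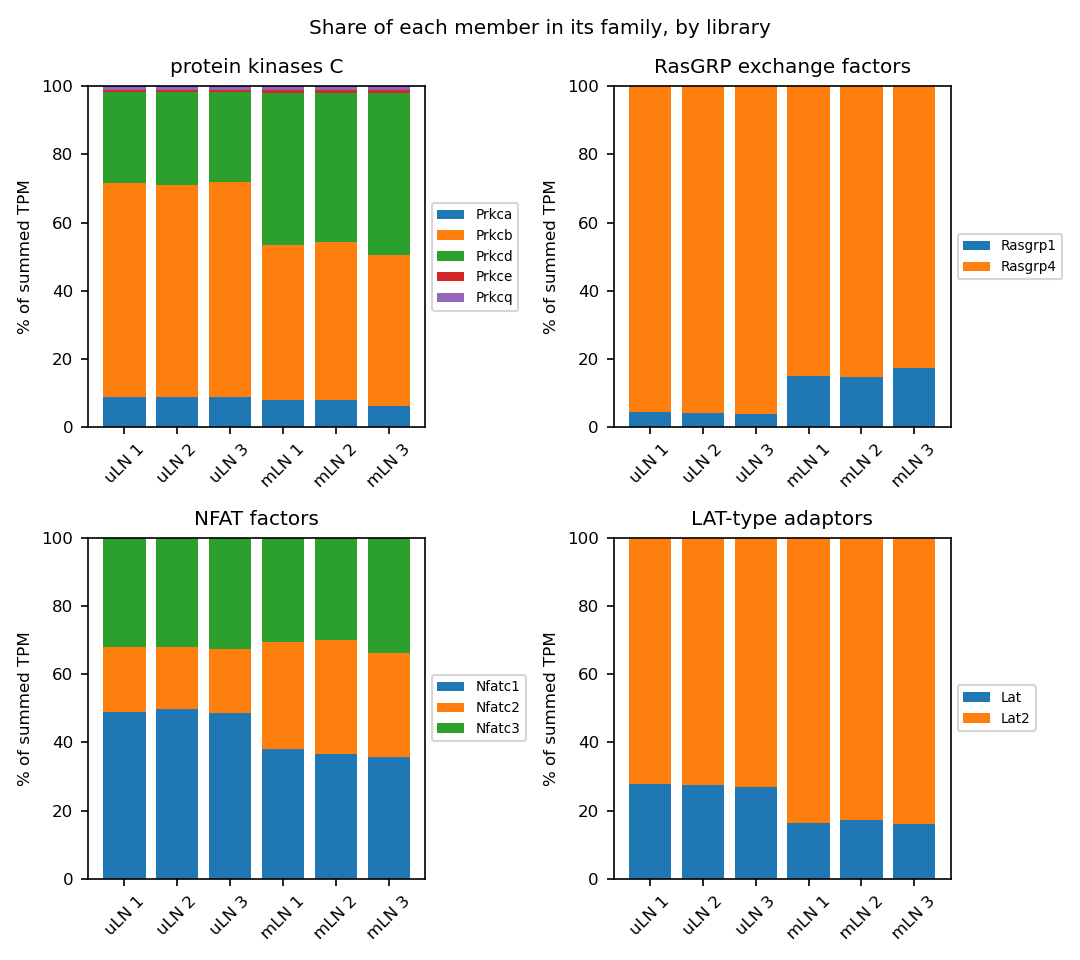
Stacked bars give each gene's percent of the summed TPM of the members of its family in each of the 6 libraries. The families are protein kinases C, RasGRP exchange factors, NFAT factors and LAT-type adaptors, and genes outside the member list are not counted. Shares within a group are close between libraries, and Prkcd, Rasgrp1, Nfatc2 and Lat2 take larger shares in the mLN libraries.

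The inhibitors divided in the same gene-by-gene way. Inpp5d, which encodes SHIP1, the phosphatase that removes the lipid product of phosphoinositide 3-kinase, was at 1669, 1594 and 1619 CPM in uLN and 1124, 1127 and 1070 in mLN. It was among the most abundant members and its groups did not overlap. Inpp5d fell 1.47-fold (log2 change of -0.56 ± 0.04, SE, edgeR adjusted p = 1.03e-06). The adaptors Dok1 and Dok2, which recruit a Ras inhibitor, rose 1.5-fold and 1.61-fold, from 56.2 ± 0.39 to 84.6 ± 1.6 CPM and from 12.1 ± 0.55 to 19.5 ± 1.4 CPM (SD, n = 3). Without mLN replicate 3 Dok2 also passed the glmTreat test (adjusted p = 0.0257). Tespa1, known from T cell development, rose 1.38-fold and Stap1, an adaptor that binds Tec-family kinases, 1.11-fold (edgeR adjusted p = 1.73e-05 and 0.00643). Tespa1 went from 112.8 ± 2.27 to 155.9 ± 8.51 CPM (SD, n = 3). Sla2, an inhibitory adaptor of lymphocytes, had 6, 2 and 4 reads in uLN and 0, 6 and 2 in mLN and was not tested.

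A comparison of related members within each library needs no scaling between libraries, so 21 pairs were set side by side as log2 ratios of their reads. For 11 pairs the ratio did not overlap between groups. Among single tested genes 72.9% did not overlap, and no such share was computed for pairs of genes in general. With 3 libraries a group the exact two-sided permutation test cannot go below p = 0.1, the value these pairs reached (adjusted over the 21 pairs, 0.191), so no pair passes a threshold. The largest shift was in Rasgrp1 over Rasgrp4, whose log2 ratio was -4.84, -4.90 and -5.02 in uLN and -2.92, -2.98 and -2.66 in mLN, a 4.19-fold change. Vav1 over Vav2 fell by 1.55, Nfatc1 over Nfatc2 by 1.2, Btk over Tec by 0.97 and Lat over Lat2 by 0.94 on the log2 scale. Lcp2 over Grap2 fell by 0.71, and Syk over Inpp5d, the activating kinase against the lipid phosphatase, rose by 0.50. In contrast, Lyn over Fyn (-0.04), Lyn over Src (0.02), Dok1 over Dok2 (-0.09), Prkcd over Prkce (0.06) and Plcg1 over Plcg2 (-0.02) overlapped between groups.

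**Figure D4:**
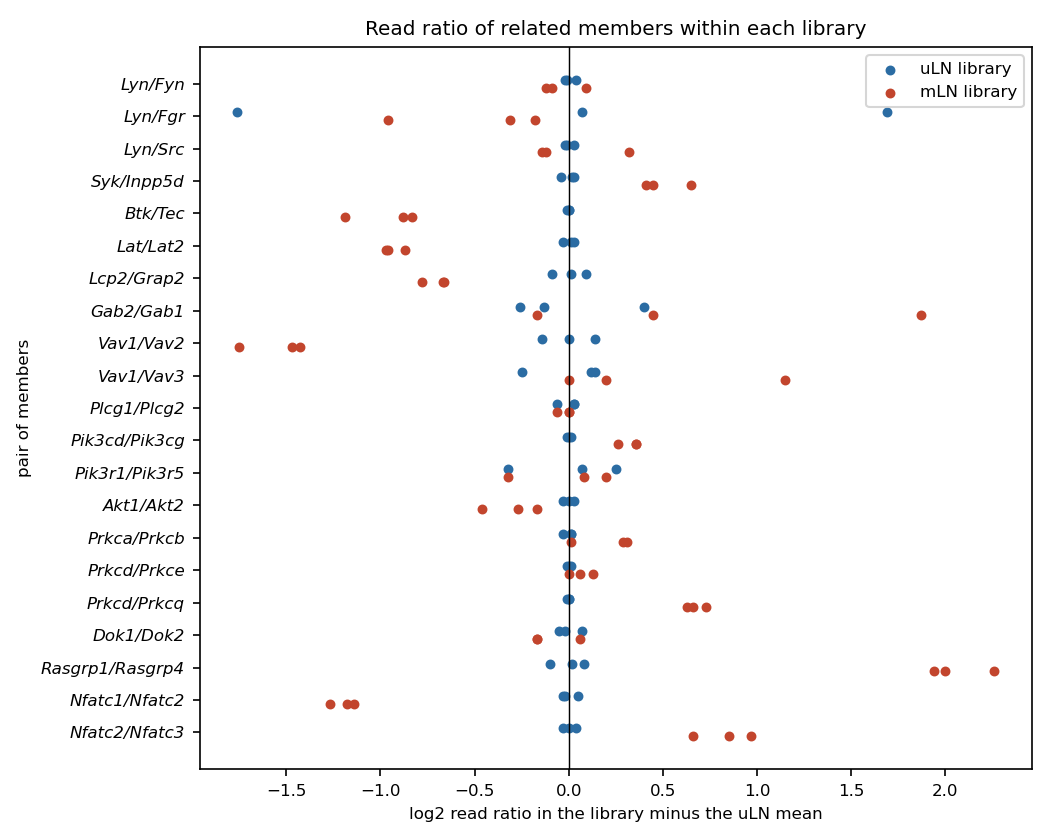
For each of 21 pairs of members the x axis gives the log2 read ratio in a library minus the uLN mean of that pair (uLN blue, mLN red). Rasgrp1/Rasgrp4 lies about 2.07 to the right and Vav1/Vav2 1.55 to the left on average, while Plcg1/Plcg2 and Lyn/Fyn stay around 0 and pairs with Fgr, Vav3 or Gab1 scatter widely and have few reads.

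Within the list, the abundant members tended to be lower in mLN and the scarcer ones higher. Of the 20 tested members with the highest mean TPM over both groups 11 were called lower and 5 higher (median log2 change of -0.15), and of the other 22 there were 3 lower and 12 higher (median 0.21). Over all tested genes 34.2% were called lower and 33.2% higher, and these calls were not divided by level. Spearman's rank correlation between mean TPM and log2 fold change was -0.43 across the 42 members, against -0.09 across 12411 tested genes with a known transcript length. This is a description across genes, which share the same 6 libraries and are not independent, and the split was made after the values were seen. The exceptions included Prkcd and Tespa1, which were abundant and rose.

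**Figure D5:**
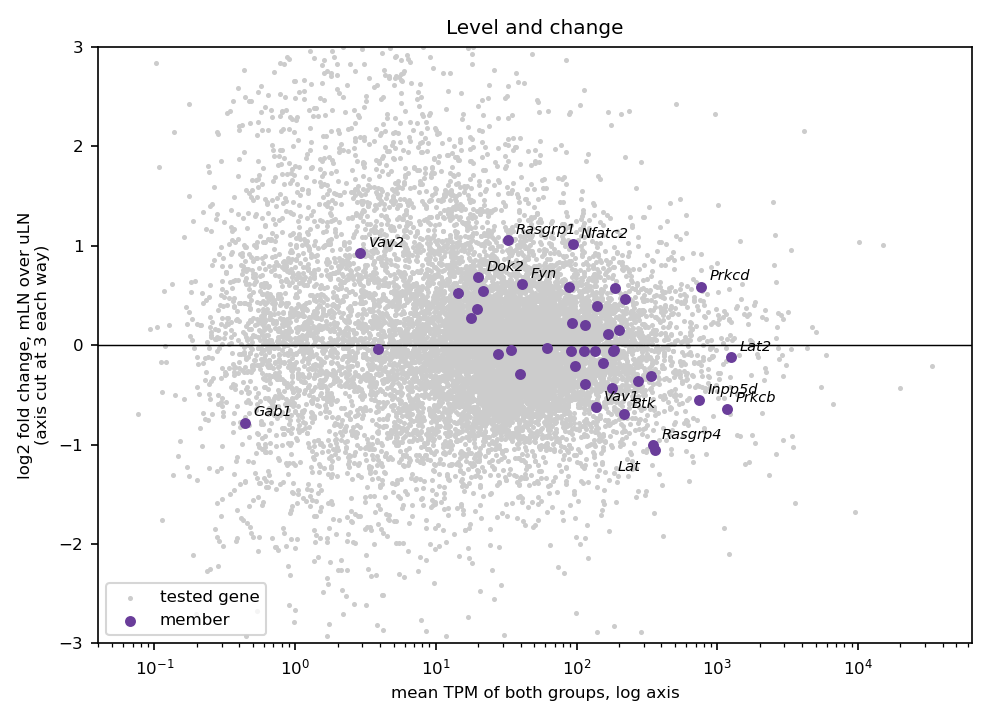
Each point is a tested gene, with mean TPM of both groups on a log x axis and log2 fold change of mLN over uLN on the y axis, members in purple. The most abundant members Prkcb, Lat2 and Inpp5d lie below 0 and Prkcd above it, while Vav2, Rasgrp1 and Nfatc2 lie highest.

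Of the receptor itself, Fcer1a, the chain that binds IgE, fell 1.5-fold from 3212 ± 98.4 to 2137 ± 149 CPM (SD, n = 3), and Ms4a2, the beta chain on which Lyn sits, fell 1.15-fold. Fcer1g was not called. The wider pathway was read from 9 lists with 151 entries, of which 140 were tested: 47 were higher, 55 lower and 38 not called. The share called was 72.9%, against the background of 67.4%. The median log2 change over these genes was 0.00. By list the share called ran from 58.8% to 85.7%.

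Among other kinases of these families 2 of 4 tested fell and 1 rose (75% called, against 67.4% of all tested genes). Txk, a Tec-family kinase, fell 1.41-fold from 45.83 ± 3.57 to 32.57 ± 1.33 CPM (SD, n = 3), and Csk, which switches Src-family kinases off, fell 1.12-fold. Lck and Zap70, the T cell counterparts of Lyn and Syk, had at most 8 and 6 reads in a library. Of other adaptors 8 of 18 rose and 4 fell (66.7% called, against 67.4% of all tested genes). Pag1, the membrane anchor of Csk, rose 1.74-fold and Themis2, an adaptor of B cells and macrophages, 2.04-fold. Skap2 fell 1.64-fold and Was, which drives actin assembly, 1.5-fold.

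Phosphatases and other brakes were called in 18 of 21 cases (85.7%, against 67.4% of all tested genes), 8 higher and 10 lower. Sla, an adaptor that damps antigen receptor signals, rose 2.29-fold from 135.3 ± 5.11 to 309.1 ± 12.4 CPM (SD, n = 3). Cbl, a ubiquitin ligase that marks activated receptors and kinases for removal, rose 2.18-fold. The phosphatase gene Ptpn6, which encodes SHP-1, fell 1.59-fold and Spred1, an inhibitor of the Ras pathway, 1.66-fold. Activating and restraining genes were therefore found in both directions.

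Of other PI3-kinase, AKT and PKC genes 6 of 14 rose and 3 fell (64.3% called, against 67.4% of all tested genes). Pik3cb, the beta catalytic subunit, rose 2.44-fold from 15.3 ± 0.64 to 37.5 ± 3.27 CPM (SD, n = 3), and the regulatory subunit gene Pik3r2 1.56-fold, while Pik3r4 and Mtor fell 1.37-fold and 1.24-fold. In the list of Ras, MAP kinase and related GTPase genes 10 of 24 rose and 9 fell (79.2% called, against 67.4% of tested genes). Map3k1 and Map2k6, kinases of the stress-activated cascades, rose 2.61-fold and 3.01-fold, while Map2k2, a kinase of the ERK cascade, fell 1.72-fold and Hras 1.57-fold.

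In the calcium, calcineurin and NFAT list 6 of 24 rose and 11 fell, and the share called, 70.8%, was close to the 67.4% of all tested genes. The calcium-store channel genes Itpr3 and Itpr1 rose 2.54-fold and 1.87-fold, but the more abundant Itpr2 fell 1.21-fold. The calcium entry channel gene Orai3 fell 1.63-fold from 54.53 ± 2.08 to 33.35 ± 3.63 CPM (SD, n = 3). Of other calcium entry genes Orai2 fell 1.49-fold, Stim1 rose 1.15-fold, and Orai1 and Stim2 were not called. Of NF-kB activation genes 6 of 15 rose and 6 fell (80.0% called, against 67.4% of all tested genes). Relb rose 1.51-fold, and Nfkb1 and Ikbkb each fell 1.42-fold.

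Genes that IgE crosslinking is known to induce, cytokines and early transcription factors, were called in 10 of 17 tested cases (58.8%, against 67.4% of all tested genes), 2 higher and 8 lower, with a median log2 change of -0.30. Past 1.5-fold in the glmTreat test 7 were lower and 1 higher (47.1%, against 21.0% of all tested genes). Fos fell 3.78-fold from 613 ± 136 to 162 ± 39.0 CPM and Egr2 8.44-fold from 26.3 ± 7.26 to 3.10 ± 1.51 CPM (SD, n = 3), both with a wide spread between libraries. Jun rose 2.31-fold. Without uLN replicate 1 or 3 or mLN replicate 2 or 3, and in DESeq2, 1 gene of this list was higher in place of 2. Among the cytokine genes, Il6 was called lower by 1.87-fold (28.4 CPM on average in uLN and 15.2 in mLN) and Ccl4 by 2.98-fold (84.7 and 28.4). Ccl3 (43.2 and 43.4 CPM) was not called. Tnf (3.76 and 3.69 CPM on average in uLN and mLN), Il13 (1.54 and 1.79) and Il4 (3.73 and 3.31) were low in both groups and were not called.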

How the data were processed

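RNA from mouse lymph-node mast cells was sequenced in 3 uLN and 3 mLN libraries, grouped by the sample titles. The tools named in the submitters' processing notes are TopHat, cutadapt and FastQC, and the build is GRCm38. How reads were counted, the strand setting and tool versions were not given in the sources used here. Values deposited by the authors are estimated counts per gene with no stated scaling. Between 32.2% and 32.8% of a library's values were not whole, and 22 of the 45 members had such values, so reads shared with other genes may be split among them. All values were rounded to whole numbers before testing. Among 17891 rows 1 is blank, with neither gene nor values, and was dropped. No molecular identifiers are named in the labels, so the floor of 3 reads covers counting error only.

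edgeR 4.0.16 in R 4.3.3 was fitted over all genes with TMM factors and its default expression filter, which kept 12706 genes and removed 5184, with no block. The call rules were the quasi-likelihood test and glmTreat beyond 1.5-fold, adjusted by Benjamini-Hochberg. The SE is the log2 change over the square root of F, and intervals use the fit's degrees of freedom. TPM used the median length of GENCODE M21 protein-coding transcripts, so shares between genes depend on these lengths. Pair ratios added 0.5 reads to each count. The tests were checked on simulated data. Full values are given for members past 1.5-fold, for the receptor-proximal chain and for members the filter removed. From each of the other lists the rule takes up to 2 called genes with the largest rise and up to 2 with the largest fall, with a mean of at least 5 CPM and groups that do not overlap. Some genes the rule takes are not reported here. Genes outside it (such as Fcer1g, Lck, Zap70, Rasgrp2, Rasgrp3, Prkci, Il6, Ccl4, Ccl3, Tnf, Il13 and Il4) were named after their values were seen. Members and lists were chosen with earlier results of these data known. Alternatives were other scaling factors, no filter, DESeq2 1.42.0, a replicate block, a fixed dispersion, other fold thresholds and leaving out each library. Of 244 list and marker entries 236 were found in the table.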

Additional observations from a re-analysis of the deposited data

How the results depend on the processing

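With other scaling factors, no filter or DESeq2, 17 to 18 members were higher and 13 to 14 lower. Leaving out each library in turn gave 15 to 18 higher and 13 to 18 lower members, 2 to 4 higher and 2 to 3 lower beyond 1.5-fold, 42 to 48 higher and 51 to 62 lower among the other pathway genes, and 11 to 15 pairs whose ratios did not overlap. Replicates varied little (common biological coefficient of variation of 0.0649). With it set to 0.2 for every gene, 8 members were higher (Lyn, Fyn, Vav2, Prkcd, Dok1, Dok2, Rasgrp1 and Nfatc2) and 5 lower (Btk, Lat, Vav1, Prkcb and Rasgrp4), or 31.0% of members against 31.9% of all genes. In that setting 24 other pathway genes were higher and 19 lower, and over all genes 2145 were higher and 1913 lower. At a glmTreat threshold of 1.2-fold, 12 members were higher and 9 lower (over all genes 2932 and 2924), and at 2-fold 0 members were higher and 0 lower (over all genes 690 and 348), although 17 and 14 passed the test of no change. Pik3r5, not called, ranged from -0.189 to 0.101 on the log2 scale when a library was left out, and changed sign without uLN replicate 3 (0.101), mLN replicate 2 (0.052) and mLN replicate 3 (0.022). Gab1 was called without mLN replicate 1 (-1.25, edgeR adjusted p = 0.0323). The replicate number as a block gave 17 higher and 13 lower members, 3 and 3 beyond 1.5-fold, with Lat2 lost (adjusted p = 0.0509 in edgeR). Same-numbered libraries did not deviate together (correlations of 0.03, -0.14 and 0.00 for numbers 1, 2 and 3). With 3 libraries a group such values cannot show whether the numbers pair the samples, and the labels do not say. Low reads limit Fgr, Vav3, Sla2 and Gab1.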
